A study of Mus musculus with 11 samples.

Results

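The mitochondrial ribosomal protein genes were taken as every gene in the count files whose symbol is Mrpl or Mrps followed by a number and at most 1 letter. The rule found 77 of 32531 genes, 48 with Mrpl symbols (large subunit) and 29 with Mrps symbols (small subunit). It used names only and no measured value. By position in the mammalian particle, 50 of the 77 belong to the large subunit and 26 to the small one, because Mrps18a and Mrps30 carry small-subunit names but sit in the large subunit. Mrps36 belongs to neither, since its product is now placed with the 2-oxoglutarate dehydrogenase complex. Subunits with other symbols and assembly, translation and tRNA-charging genes were read beside them as separate lists.

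Mitochondria carry their own ribosome, which translates the few proteins that mitochondrial DNA encodes, all of them parts of the respiratory chain and ATP synthase. Its RNA comes from mitochondrial DNA, but all of its proteins are encoded in the nucleus, made on cytosolic ribosomes and imported. Many have a counterpart in bacterial ribosomes and others are found only in mitochondria. In neurons, which depend heavily on oxidative phosphorylation, their messages are part of the RNA that a pull-down of cytosolic ribosomes recovers.

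The libraries come from adult mice of 1 transgenic line, labelled Glt25d2-TRAP DU9 or Glt25d2-EGFP/Rpl10a, in a study of short-access intravenous cocaine self-administration. All groups carry this transgene, in which the regulatory DNA of Glt25d2 (now Colgalt2) drives an EGFP-tagged Rpl10a, mainly in layer 5 pyramidal neurons of the cortex. Ribosome-bound RNA was immunopurified (IP) through the tag in 3 libraries from cocaine self-administration, 3 from yoked controls and 3 from saline self-administration. There was also 1 unbound library from the cocaine group and 1 input library from the saline group. The labels name cerebral cortex as tissue while the extraction text speaks of striatum. They do not say what the yoked mice received, or whether replicates are separate animals or pools, so p-values measure only the spread between libraries.

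Gene counts per library ran from 20926712 in the unbound library to 53862653 in saline IP replicate 1. Each IP group was sequenced in a lane of its own (2 for cocaine, 3 for yoked, 6 for saline), so treatment and lane cannot be told apart. In each group, libraries with the same replicate number carry the same index, so number and index cannot be told apart either. The 3 IP libraries numbered 1 stand apart from the other 6. Reads that matched no counted feature were 6.28% to 7.29% of entries in them and 10.3% to 15.5% in numbers 2 and 3. Whether such reads lie in introns or between genes is not given. Summed levels of 12 astrocyte markers were 1100 to 1583 CPM in number 1 libraries and 2625 to 3179 CPM in the others. For 12 oligodendrocyte markers the sums were 635 to 803 CPM and 1462 to 1997 CPM, and for 12 microglia markers 20.7 to 35.4 CPM and 36.8 to 55.6 CPM. Summed levels of 14 layer 5 markers were 1359 to 1578 CPM in number 1 libraries and 747 to 952 CPM in numbers 2 and 3. Colgalt2 itself was at 136 to 150.0 CPM in number 1 libraries and 77.3 to 104 CPM in the others. In the saline input the astrocyte, oligodendrocyte, microglia and layer 5 sums were 2772, 1700, 49.7 and 792 CPM. Its Colgalt2 level was 81.5 CPM and its share of reads without a feature 13.3%. On each of these measures the input lay inside the range of IP numbers 2 and 3. No marker in these lists was at 0 in any library. Every result on treatment below is therefore also given within each replicate number.

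Of the 77 genes, 76 passed the low-count filter over the 9 IP libraries (16417 of all genes did). Mrpl53 was listed at 0 in all 11 libraries. A count of 0 allows up to 0.0574 to 0.151 CPM (3 counts per library), for counting error only. Its annotated exons overlap those of Gm42688 on the same strand and Ccdc142os on the other. Of the 77, 32 share exon bases with another annotated gene, 27 of them with one on the opposite strand, such as the pair Mrpl46 and Mrps11. The sources used here do not give the strand setting of the counting. Which reads from such pairs were counted, and which were set aside as ambiguous, is therefore not known.

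On a scale of CPM per kb of merged exon, the tested genes had a median of 21.8, against 4.91 for the 15041 tested genes with a known length. The median was 23.2 CPM per kb for the 49 tested large-subunit genes and 18.9 CPM per kb for the 26 small-subunit genes. The highest was Mrpl41, a protein found only in mitochondrial ribosomes, at 74.8 CPM per kb (range 36.8 to 175 over the 9 IP libraries). It was followed by Mrps18c, one of 3 mammalian homologues of bacterial S18, at 72.0 CPM per kb. Next came Mrpl20 at 62.7, Mrpl42 at 58.5, Mrpl16 at 56.5 and Mrps12, the S12 homologue of the decoding site, at 54.1 CPM per kb. The SD over the 9 libraries was between 14.2 and 43.7 CPM per kb, so the ranges of these 6 overlap. Within libraries, Mrpl41 lay above Mrps18c in 5 of 9, and Mrpl42 above Mrpl20 in 7 of 9, while Mrpl41 and Mrps18c each lay above Mrpl16 and Mrps12 in 9 of 9.

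At the other end, Mrpl23, which lies near the peptide exit in bacterial ribosomes, stood at 0.712 CPM per kb and Mrps34 at 1.17 CPM per kb. Mrps18b reached 2.22, Mrps5 2.22 and Mrps36 3.79 CPM per kb. Merged exon length covers all RefSeq-matched isoforms and is long for a few genes (7300 bp for Mrpl17), which lowers their value on this scale. Exons of Mrps34 overlap those of Nme3 on the same strand and Mapk8ip3 on the other. Whether these overlaps play a part in the low counts was not tested.

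Upstream sequence was read for the set, and is printed for a few genes among those with large differences below, to show what precedes their starts. RefSeq windows (GRCm38.p6) from 250 bases before to 50 after the start were at hand for 68 of the 77 genes, as 74 windows. The ETS-type core CCGGAAG was found on either strand in 33.8% of these windows, against 8.86% of 32851 windows of all genes. The NRF1 motif, GCGCA and GCGC with any base between them, was in 17.6% against 4.6%, and the YY1-type letters AANATGGCG were in 13.5% against 2.38%. TATAAA was in 5 of the 74 windows, 6.76% against 13.6%. Counted per gene and against the 11405 tested genes with a window, the shares were 36.8% against 17.6% for the ETS letters, 19.1% against 10.4% for NRF1, 14.7% against 5.22% for YY1 and 7.35% against 8.97% for TATAAA. A match describes letters and shows no binding. The 120 bases before the start follow, 5′ to 3′ on the gene's strand, with an ETS or NRF1 match in capitals. Mrps12, Mrps21 and Mrpl27 are among the genes that differed most in number 1 libraries, and Mrpl12 is among those in which cocaine IP 1 lay furthest above the rest.
Mrps12 (chr7:28741822-28741941, minus strand): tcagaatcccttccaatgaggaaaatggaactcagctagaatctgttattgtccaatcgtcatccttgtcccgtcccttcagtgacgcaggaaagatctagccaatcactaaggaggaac
Mrps21 (chr3:95871515-95871634, minus strand): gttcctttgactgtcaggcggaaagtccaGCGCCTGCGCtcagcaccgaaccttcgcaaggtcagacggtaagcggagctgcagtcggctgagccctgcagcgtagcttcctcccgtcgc
Mrpl27 (chr11:94653671-94653790, plus strand): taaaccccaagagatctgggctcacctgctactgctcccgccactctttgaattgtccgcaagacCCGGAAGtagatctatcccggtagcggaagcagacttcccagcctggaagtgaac
Mrpl12 (chr11:120484517-120484636, plus strand): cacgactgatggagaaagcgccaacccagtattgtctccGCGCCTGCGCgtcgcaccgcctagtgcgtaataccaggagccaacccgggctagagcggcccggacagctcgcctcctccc
Mrps21 and Mrpl12 hold the NRF1 letters on the reverse strand at about the same distance from the start (91 and 81 bases), and Mrpl27 holds the ETS core 55 bases before it. The printed stretch of Mrps12 holds neither, but the ETS core lies just past it, 1 base after the start. Mrps21 has one 18 bases after the start. Mrps18c, Mrpl20 and Mrpl41 rose more than Mrpl27 in number 1 libraries but are not printed. Mrps18c holds the ETS core further upstream than the printed length. The windows of Mrpl20 and Mrpl41 hold no ETS, NRF1 or YY1 letters. Neither do those of Mrpl28 and Mrpl40, whose cocaine IP 1 excess over saline IP 1 was larger than that of Mrpl12.

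The arrangement of the genes was read as well. A protein-coding gene starts within 1000 bp on the opposite strand, pointing away, for 18 of the 76 tested genes (23.7%), against 9.35% of 13780 tested protein-coding genes. Mrps12 and Sars2, which charges mitochondrial serine tRNA, start 172 bp apart. Mrps27 starts 81 bp from Ptcd2, whose product acts on mitochondrial RNA, and Mrpl32 starts 75 bp from the proteasome gene Psma2. Lrrc46, Klc4, Hira, Zfp189 and Helq are among the other neighbours. The 77 genes lie on 17 chromosomes, with the most, 10, on chromosome 11.

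**Figure D1:**
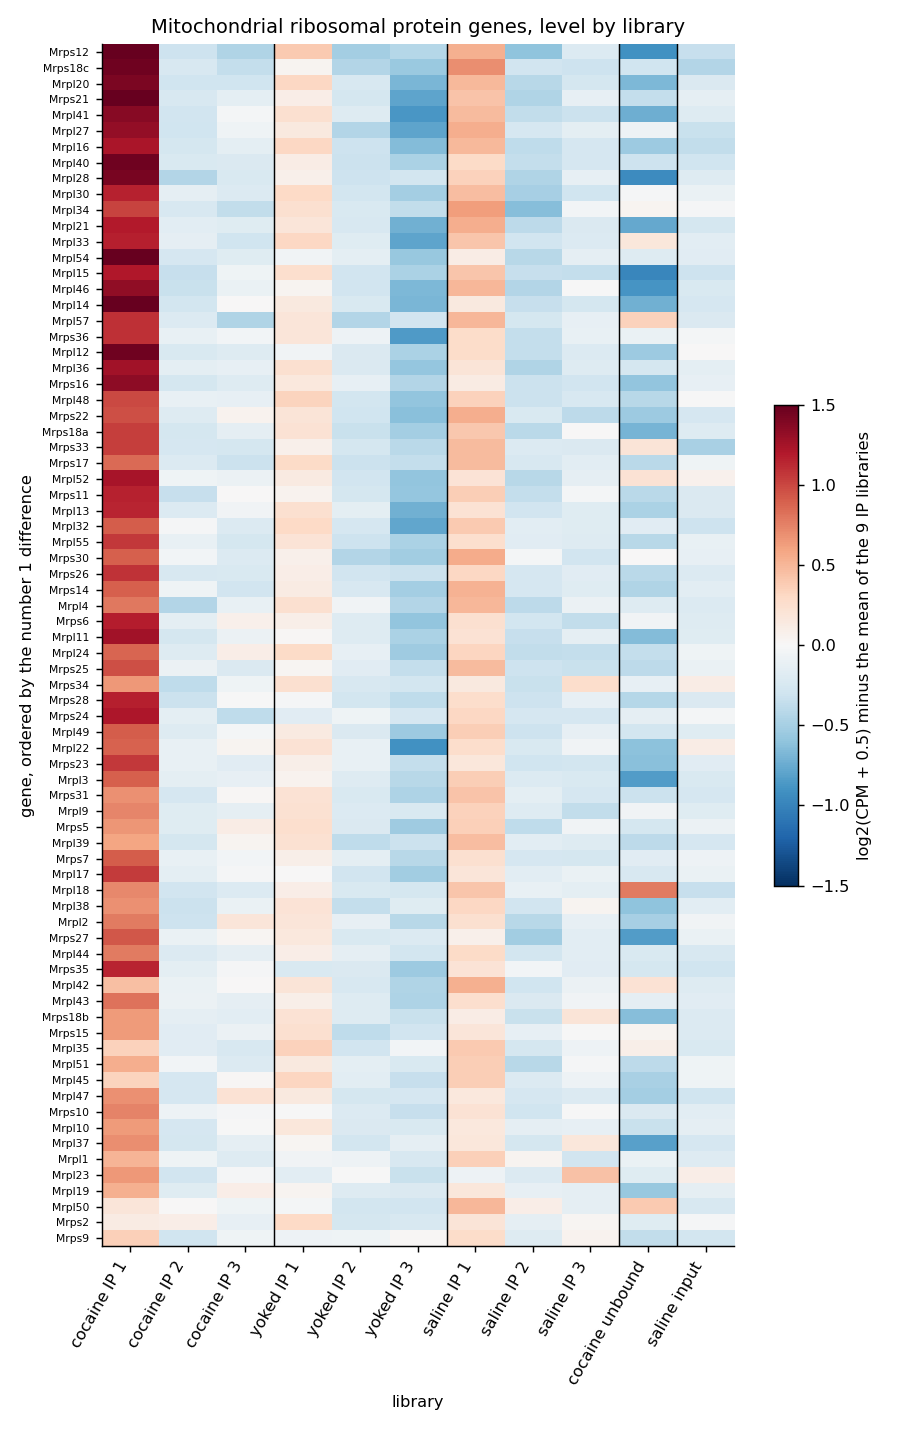
Level of each of the 76 tested genes (rows, ordered by the number 1 difference) in the 11 libraries (columns), as log2(CPM + 0.5) minus the gene's mean over the 9 IP libraries, with red above and blue below that mean. The column of cocaine IP 1 is red in nearly every row, saline IP 1 and yoked IP 1 are paler red, and the other columns are near white or blue.

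Across libraries the genes moved as a block. Their summed level was 4714, 2068 and 2165 CPM in cocaine IP replicates 1, 2 and 3, 2618, 1986 and 1734 CPM in yoked IP, and 3071, 1956 and 2096 CPM in saline IP. The unbound library held 1922 CPM and the input 2063 CPM. Cocaine IP 1 was the highest of the 11 and saline IP 1 the second, and the 6 libraries numbered 2 and 3 lay within 1734 to 2165 CPM, on both sides of the input. As a share of all gene counts, the genes took 0.465% in cocaine IP 1, 0.263% in yoked IP 1 and 0.298% in saline IP 1, against 0.175% to 0.221% in the other 6 IP libraries. Of the 76 genes, 71 had their highest IP level in cocaine IP 1, where 29.3% of all tested genes did. Saline IP 1 was highest for 4 genes and yoked IP 1 for 1.

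The comparison of cocaine with saline self-administration asks which ribosome-bound messages change with cocaine taking. No mitochondrial ribosomal protein gene passed the threshold, an adjusted p under 0.05 in edgeR's quasi-likelihood test, and neither did any of the 16417 genes (0% called). At an unadjusted p under 0.05, 0 of the 76 genes and 168 of all genes (1.02%) were found, and DESeq2 called 0 genes as well. The estimates leaned 1 way: 73 of 76 were above 0, with a median log2 fold change of 0.37, against 0.03 for all tested genes. In 0 of the 76 genes did all 3 cocaine libraries lie above all 3 saline libraries (2.88% of all genes did so).

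The estimate furthest above 0 belonged to Mrpl54, a large-subunit protein found only in mitochondria. It was at 19.4, 4.86 and 5.15 CPM in cocaine IP 1, 2 and 3 and at 6.41, 4.31 and 5.35 CPM in saline IP. Only the first cocaine library stands out, the others lie inside the saline range, and the groups overlap. Its log2 fold change was 0.90 ± 0.52 (SE, n = 3 libraries each, adjusted p = 0.9998 in edgeR's quasi-likelihood test). Mrpl14, the L14 homologue, followed at 57.4, 16.4 and 20.1 CPM in cocaine IP against 22.2, 15.6 and 16.5 CPM in saline IP, a log2 difference of 0.81 ± 0.46. Here too a single cocaine library set the mean. Mrps16 and Mrpl40 were both at 0.69 (SE 0.43 and 0.47). At the low end stood Mrps2 at 0.01 ± 0.20, Mrps9 at -0.02 ± 0.21, Mrpl35 at -0.02 ± 0.26 and Mrpl50 at -0.12 ± 0.20. Mrpl50 was at 108, 95.4 and 90.8 CPM in cocaine IP and 135, 102 and 86.1 CPM in saline IP, with wide overlap.

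Within replicate numbers, cocaine over saline gave median log2 ratios of 0.61 for number 1, 0.09 for number 2 and 0.05 for number 3. The number of genes above 0 was 71, 55 and 44 of 76. The lean toward cocaine was thus larger in number 1 than in the other numbers, and without cocaine IP 1 the fitted median turned to -0.15, with 7 of 76 genes above 0. With all 3 number 1 libraries left out it was 0.06. With replicate number as a block, 0 genes were called and the median was 0.30. In that fit 24 of 76 genes had an unadjusted p under 0.05, against 12.3% of all tested genes. The genes share libraries, so these p-values are not independent.

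In the comparison of cocaine with yoked controls, again 0 of 76 genes and 0% of all genes were called, with unadjusted p under 0.05 for 1 of the 76 genes and 1.11% of all. The median log2 fold change was 0.51, against 0.01 for all genes, and 75 of 76 were above 0. Mrpl54 led with 1.01 ± 0.52, at 19.4, 4.86 and 5.15 CPM in cocaine IP and 5.67, 5.30 and 3.80 CPM in yoked IP. Mrps21, the S21 homologue, was at 57.5, 16.9 and 18.1 CPM in cocaine IP and 21.6, 16.6 and 11.3 CPM in yoked IP, a log2 difference of 0.92 ± 0.50. For both genes the groups overlap, and the first cocaine library lies far above the rest. Mrpl14 was at 0.89 ± 0.46 and Mrps18c at 0.86 ± 0.51, while Mrpl45 (0.10), Mrps2 (0.09), Mrps9 (0.07) and Mrpl35 (-0.02) were lowest. The one gene whose groups did not overlap was Mrps35, a small-subunit protein found only in mitochondria, at 41.8, 16.8 and 18.4 CPM in cocaine IP and 15.8, 16.0 and 12.6 CPM in yoked IP. Its log2 difference was 0.81 ± 0.34, with an adjusted p of 0.972 in edgeR's quasi-likelihood test. Over all tested genes, 3.09% had all cocaine libraries above all yoked ones, and 2.56% had them all below, as 0 of the 76 did.

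By replicate number, the cocaine over yoked medians were 0.82, 0.03 and 0.33, with 75, 48 and 70 of 76 genes above 0. Without cocaine IP 1 the fitted median was 0.01 and 40 genes were above 0. The block on replicate number gave a median of 0.43 and no call. In that fit 53 of 76 genes had an unadjusted p under 0.05, against 18.3% of all tested genes. The genes share libraries, so these p-values are not independent. The block also takes the number difference as equal in all treatments, while its median was 1.11 in cocaine, 0.50 in yoked and 0.56 in saline.

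Yoked controls against saline used the same saline and yoked libraries as the comparisons above, so the 3 sets of values are not independent. No gene was called (0% of all), with unadjusted p under 0.05 for 0 of 76 genes and 0.402% of all. The median was -0.14, against 0.00 for all genes, and 4 of 76 genes were above 0, namely Mrps27 (0.10), Mrps16 (0.05), Mrpl24 (0.03) and Mrps23 (0.01). The lowest were Mrpl23 at -0.51 ± 0.61, Mrps18c at -0.41 ± 0.51, Mrpl27 at -0.40 ± 0.46 and Mrps30 at -0.40 ± 0.35. Mrps18c was at 42.1, 30.0 and 27.8 CPM in yoked IP and 66.8, 33.4 and 32.9 CPM in saline IP, so its groups overlap through the first yoked library. Mrps35 had all 3 yoked libraries (15.8, 16.0 and 12.6 CPM) below all 3 saline libraries (21.5, 18.1 and 16.5 CPM), as 2.31% of all genes did, and no gene of the 76 had them all above (1.91% of all). Medians within numbers were -0.17, 0.08 and -0.27, so the sign differed between numbers, and without saline IP 1 the fitted median was 0.06 (61 of 76 above 0). Without yoked IP 3 it was -0.02 (35 above 0), without yoked IP 2 11 were above 0, and without yoked IP 1 or saline IP 2 0 were. The block gave -0.13, no call, and unadjusted p under 0.05 for 3 of 76 genes and 3% of all. A test for any difference among the 3 IP groups called 0 genes, and 0 of 76 had an unadjusted p under 0.05 (0.481% of all).

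**Figure D2:**
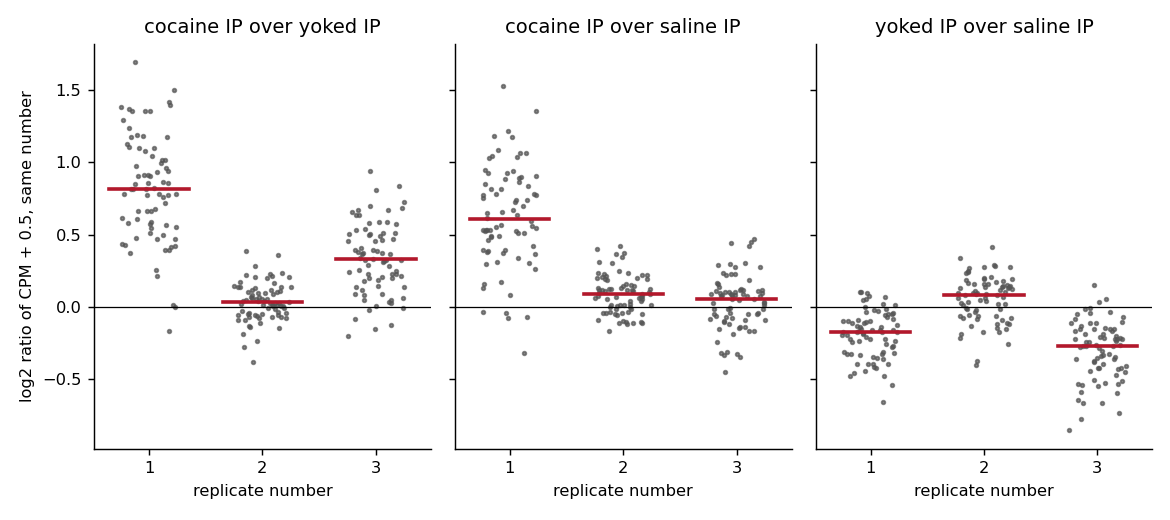
Log2 ratio of CPM + 0.5 between treatments within each replicate number, 1 point per gene (76 genes) and a red bar at the median, for cocaine over yoked, cocaine over saline and yoked over saline. In number 1 the clouds of cocaine over yoked and cocaine over saline sit near 0.82 and 0.61, while in number 2 all 3 medians lie between 0.03 and 0.09.

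The larger difference lay between replicate numbers. With treatment kept in the model, 73 of 76 genes rose in the libraries numbered 1 against the mean of numbers 2 and 3, and 0 fell (edgeR's quasi-likelihood test, adjusted p under 0.05). Among all tested genes 27.6% were higher and 27.7% lower, and 60.4% had an unadjusted p under 0.05, as 75 of the 76 did. The median log2 fold change was 0.79 for the genes and 0.01 for all, with a range of 0.30 to 1.31. In 63 of 76 genes all 3 number 1 libraries lay above the other 6, as in 21.1% of all genes. Numbers 3 and 2 did not separate in this way: 0 genes were called between them, 0 of 76 had an unadjusted p under 0.05 (1.95% of all), and the median was -0.02.

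Mrps12 rose most. It was at 133, 58.4 and 64.3 CPM in the number 1 libraries of cocaine, yoked and saline, and ran from 28.8 through a median of 32.5 to 38.2 CPM in the 6 others. All 3 number 1 libraries lie above every other, and cocaine 1 lies highest. Its log2 fold change was 1.31 ± 0.17 (SE, 3 against 6 libraries, adjusted p = 1.6e-05 in edgeR's quasi-likelihood test). Mrps18c stood at 113, 42.1 and 66.8 CPM against 27.8 to 34.8 CPM (median 32.5), a rise of 1.16 ± 0.16 on the log2 scale (adjusted p = 3.4e-05). Mrpl20, the L20 homologue, was at 116, 53.6 and 60.5 CPM against 26.7 to 36.4 CPM (median 35.0), a rise of 1.15 ± 0.16 (adjusted p = 3.0e-05). Neither gene's groups overlap.

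Mrps21 and Mrpl41 both rose by 1.07, Mrpl27, whose bacterial homologue reaches the peptidyl transferase site, by 1.05, Mrpl16 by 1.04 Mrpl40 by 1.0 and Mrpl28 by 0.996. Mrpl30, Mrpl34 and Mrpl21 rose by 0.99. The smallest values were found in both subunits. Mrpl19, the L19 homologue, was higher by 0.39 ± 0.11, Mrpl50 by 0.35 ± 0.10 and Mrps2 by 0.33 ± 0.11, and all 3 passed the test. Mrps9 was at 26.2, 19.2 and 24.7 CPM in number 1 libraries against 16.4 to 21.2 CPM (median 19.5), so its groups overlap, and its 0.30 ± 0.12 missed the threshold (adjusted p = 0.0504). The other genes not called were Mrps34 (0.77 ± 0.32, adjusted p = 0.0519) and the barely counted Mrpl23 (0.43 ± 0.51, adjusted p = 0.492).

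Most genes of both subunits rose. Of 49 tested large-subunit genes 48 rose (median 0.80), and of 26 small-subunit genes 24 rose (median 0.77). Of 46 genes with a bacterial counterpart 44 rose (0.79), and of 28 found only in mitochondria 27 rose (0.75). Mrps30 and Mrps18a, the large-subunit proteins with small-subunit names, were at 40.8, 22.96 and 32.3 CPM (Mrps30) and 79.7, 45.1 and 51.2 CPM (Mrps18a) in number 1 libraries of cocaine, yoked and saline, against 14.98 to 21.3 CPM (Mrps30) and 27.0 to 38.8 CPM (Mrps18a) in the others, without overlap. Mrps36, which is no ribosomal protein, rose by 0.93 ± 0.24 with the rest.

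**Figure D3:**
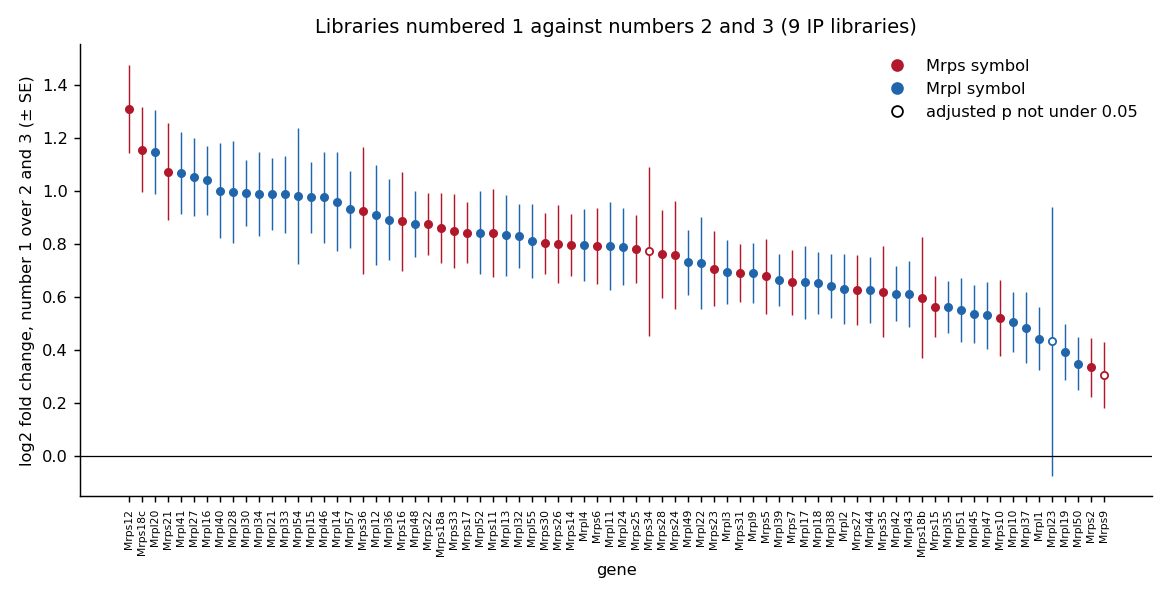
Log2 fold change of number 1 against numbers 2 and 3 over the 9 IP libraries for each of the 76 genes, in falling order, with bars of 1 SE, red for Mrps and blue for Mrpl symbols and open points where the adjusted p was not under 0.05. All 76 points lie above 0, between 0.30 and 1.31, and the open points are Mrps34, Mrpl23 and Mrps9.

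Within each treatment, the number 1 library over the mean of numbers 2 and 3 gave a median log2 ratio of 1.11 in cocaine, 0.50 in yoked and 0.56 in saline. All 76 genes were above 0 in cocaine, 74 in yoked and 75 in saline. Left out alone, no library ended the pattern: without cocaine IP 1, 66 of the 76 genes were still called higher, against 24% of 16801 tested genes, with a median of 0.55. The shifts described above in glial markers, layer 5 markers and reads without a feature move with the same libraries. So does the abundance of nuclear non-coding RNA. The sum of 8 such RNAs, Malat1 and Meg3 among them, was 205 to 414 CPM in number 1 libraries and 2442 to 7247 CPM in IP numbers 2 and 3. It was 5227 CPM in the saline input, inside the range of numbers 2 and 3, and 15560 CPM in the cocaine unbound library. The sums of 12 interneuron markers (989.7 to 1370 CPM in number 1 libraries, 979 to 1267 CPM in the others) and of 12 endothelial and mural markers (24.7 to 39.7 CPM and 22.9 to 35.5 CPM) overlapped, but single markers moved. Of the interneuron markers 9 were called lower and 3 higher (median -0.62), and of the endothelial and mural markers 7 were called higher and 3 lower (median 0.73). The part of these shifts in the rise of the mitochondrial ribosomal protein genes was not tested. In bulk RNA, a changed mix of cells and a changed level per cell cannot be told apart.

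The rest of the mitochondrial translation machinery was counted in the same fit, in which 27.6% of all tested genes were higher and 27.7% lower. All 6 subunits with other symbols rose (median 0.78), led by Chchd1 (1.19 ± 0.18) and Gadd45gip1 (0.93 ± 0.15), with Ict1 (0.67) and Dap3 (0.66) lowest. Of 24 assembly genes 16 rose (median 0.48), with Mtg2 at 1.01 and Ftsj2 at 0.80, while Mterf4 (0.00) and Gtpbp10 (-0.04) did not pass. Of 15 translation factors 12 rose (0.69). The elongation factors Tufm (0.997 ± 0.17) and Tsfm (0.95 ± 0.16) led, and Mtif2 (0.22) and Guf1 (0.14) did not pass. Among 20 genes for mitochondrial tRNA charging 15 rose and 2 fell (median 0.48). Yars2 rose by 0.93, while Mars2 fell by 0.80 and Wars2 fell by 0.88. Of 8 genes for mitochondrial DNA transcription and replication 3 rose (0.30), Polrmt by 0.81, Tefm by 0.79 and Ssbp1 by 0.61, while Tfam (0.16) and Peo1 (-0.19) did not pass. That share lies near the share of all genes. For comparison, 69 of 81 cytosolic ribosomal protein genes rose and 1 fell (median 0.77), and 37 of 37 complex I genes rose (1.01). None of the 5 lists held a gene called between treatments.

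Transcript length varies with the number difference. The tested genes are short, with a median merged exon length of 1284 bp, against 3135 bp for all tested genes with a length. Across the 76 genes the number 1 log2 fold change had a Spearman correlation of -0.45 with length, and across all 15041 genes one of -0.43, given as a description because genes share libraries and are not independent. The 38 shorter genes had a median of 0.85 and the 38 longer ones 0.67. All genes with a length inside the middle 50% of the lengths of the 76 genes, 4621 in number, had a median of 0.37. With each library's trend on length removed, 53 of the 76 genes were still called higher and 0 lower, against 26.7% and 24.8% of all tested genes, and the median was 0.37, against 0.03 for all. Long genes then led, with Mrps25 at 1.20, Mrpl17 at 1.19 and Mrpl15 at 1.13. The trend uses merged exon length, which is 6073 bp for Mrps25 and 7300 bp for Mrpl17 and covers all matched isoforms. The part of this measure in their lead was not tested. Mrps12 was at 0.75, and Mrpl23 (-0.22), Mrps9 (-0.09) and Mrpl42 (-0.01) lay below 0. The treatment medians also shrank, to 0.16 for cocaine against saline, 0.24 for cocaine against yoked and -0.08 for yoked against saline.

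**Figure D4:**
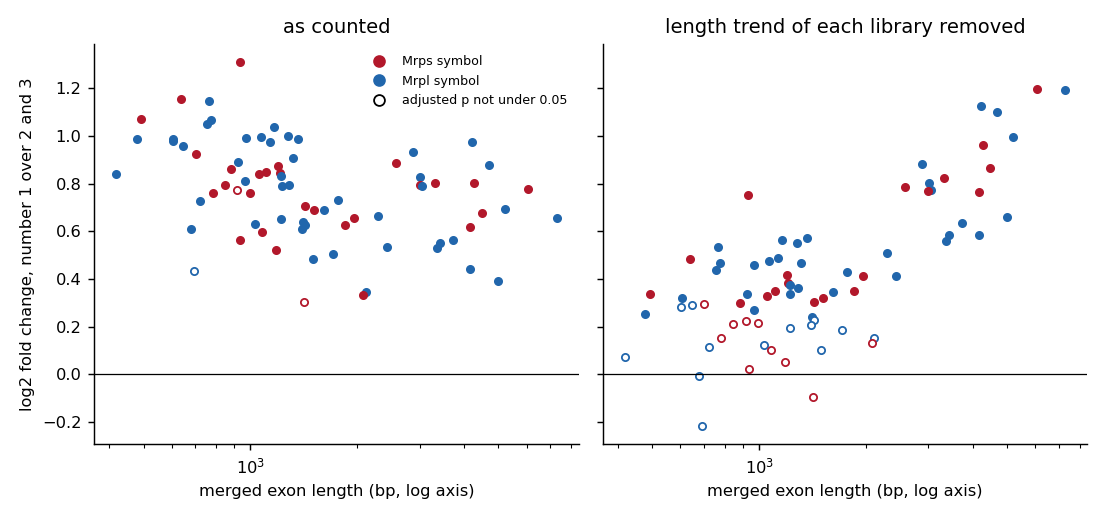
Log2 fold change of number 1 against numbers 2 and 3 (y axis) by merged exon length in bp (log x axis) for the 76 genes, as counted on the left and with each library's length trend removed on the right, red for Mrps and blue for Mrpl symbols, open where the adjusted p was not under 0.05. On the left short genes are highest (Spearman -0.45), while on the right the longest genes, such as Mrps25 and Mrpl17, are highest and the median is 0.37.

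The 3 number 1 libraries were also set against each other, each relative to numbers 2 and 3 of its group. With 1 number 1 library per group and 3 residual degrees of freedom, all from numbers 2 and 3, these p-values compare single libraries and not treatments. The excess over numbers 2 and 3 was larger in cocaine IP 1 than in yoked IP 1 in 20 of 76 genes and smaller in 0, against 2.08% and 1.11% of all genes, or 3.19% in either direction (median 0.66 on the log2 scale). It was larger in cocaine IP 1 than in saline IP 1 in 5 of 76 genes and smaller in 0, against 0.499% and 0.0244% (median 0.59). Between yoked IP 1 and saline IP 1 no gene was called, with unadjusted p under 0.05 for 2 of 76 genes and 3.92% of all. Mrpl12, the stalk protein of the large subunit, was at 112 CPM in cocaine IP 1 against 34.6 and 35.3 CPM in cocaine IP 2 and 3. In yoked IP it was at 39.1 CPM against 34.8 and 29.0 CPM, and in saline IP at 49.2 CPM against 31.5 and 34.9 CPM. Cocaine IP 1 alone is far above the rest. Its difference of differences was 1.41 ± 0.22 for cocaine IP 1 against yoked IP 1 (adjusted p = 0.00637) and 1.15 ± 0.22 against saline IP 1 (adjusted p = 0.0334, edgeR's quasi-likelihood test). Cocaine IP 1 also had the highest share of reads aligned to several places, 47.1% against 28.3% to 40.6% in the other 10 libraries, and the highest share of gene counts on the ribosomal RNA precursor Rn45s, 8.0% against 3.62% to 6.6%. Their part in its excess was not tested. With the length trend removed, 7 of the 76 genes were called higher against yoked IP 1 (0.262% of all) and 0 against saline IP 1 (0% of all). Against saline IP 1 the count was 0 without saline IP 3 (0 of all genes) and 1 without cocaine IP 2 (53 of all). It was 9 without yoked IP 2 (159 of all) and 10 without yoked IP 3 (172 of all). Against yoked IP 1 it was 7 without yoked IP 2 (210 of all).

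The fraction comparisons ask whether the messages are enriched on tagged ribosomes. The cocaine IP libraries were divided by the unbound library of that group and the saline IP libraries by the input of that group, for the 75 genes whose mean reached 1 CPM. No gene reached a 2-fold difference in the same direction in all 3 libraries, in either comparison. Over all genes 0.429% were 2-fold higher and 2.07% 2-fold lower than unbound, and 0.0742% were 2-fold higher and 0.0445% 2-fold lower than input.

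Cocaine IP over unbound gave medians of 1.34, 0.18 and 0.23 on the log2 scale for replicates 1, 2 and 3, against 0.02, 0.09 and 0.07 for all genes. In the single unbound library 7.336% of entries were ambiguous between genes, against 1.555% to 1.907% in the other libraries. Exons of some of the genes overlap other genes, such as those of Mrpl18 with Tcp1 on the opposite strand. The part of ambiguous reads in these ratios was not tested. Of 75 genes, 53 were higher than unbound in all 3 libraries, against 32.7% of all genes. Mrpl15, the L15 homologue, was highest at 2.22, 0.70 and 0.94 in the 3 libraries, and Mrpl28, the L28 homologue, was at 2.44, 0.58 and 0.74. Mrpl18, which binds 5S rRNA in bacteria, was lowest at -0.03, -1.01 and -0.97, followed by Mrpl50 at -0.18, -0.33 and -0.44. They were the only genes below unbound in all 3 libraries, where 25% of all genes were. In edgeR's quasi-likelihood test over the 11 libraries 0 of 76 genes were called (0.0553% of all), 4 of 76 had an unadjusted p under 0.05 (10.3% of all), and without cocaine IP 1 the median ratio fell to 0.17, against 0.63 with it.

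Saline IP over input gave medians of 0.50, -0.11 and 0.04, against 0.01, 0.00 and 0.00 for all genes, with 75, 18 and 43 of 75 genes above 0. In 14 of 75 genes all 3 libraries were above the input, near the 18% of all genes, and in 0 genes all 3 were below (18.8% of all). Mrps33, a small-subunit protein found only in mitochondria, was highest at 0.94, 0.30 and 0.28, and Mrps18c was at 1.12, 0.16 and 0.14. Mrpl52 was lowest at 0.11, -0.49 and -0.21. The excess over input was thus seen in replicate 1, and without it the median was -0.03. Without saline IP 2 the count above input in every remaining library was 40. With fewer libraries this rule is looser, and the share of all genes under it is not given. The edgeR test over 11 libraries called 0 genes of all tested, and 0 of 76 genes had an unadjusted p under 0.05 (0.587% of all). The 14 layer 5 markers had medians over input of 0.96, 0.02 and 0.26 in saline IP 1, 2 and 3.

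**Figure D5:**
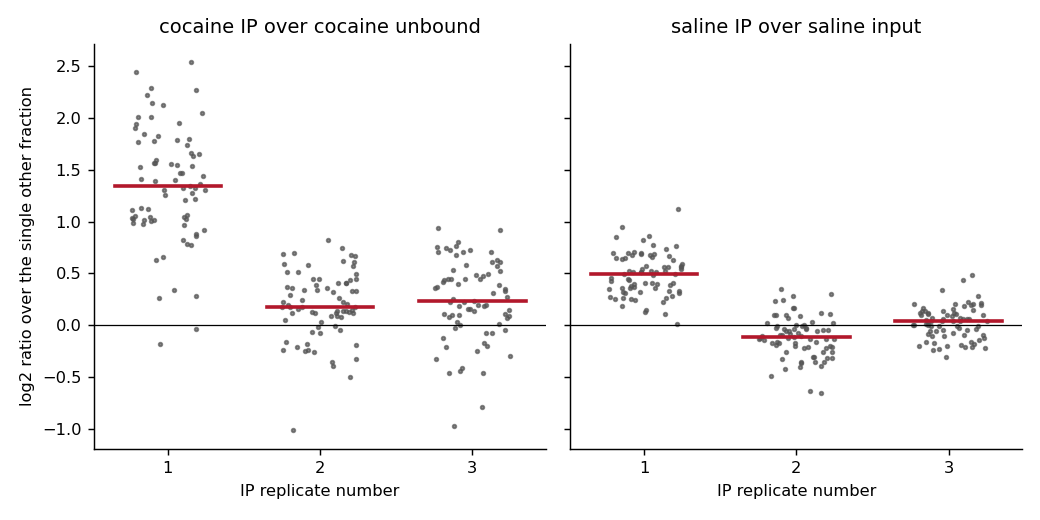
Log2 ratio of each IP library over the single other fraction of its group (75 genes, 1 point each, red bar at the median), for cocaine IP over unbound on the left and saline IP over input on the right, by IP replicate number. The medians are 1.34, 0.18 and 0.23 on the left and 0.50, -0.11 and 0.04 on the right, so replicate 1 is highest in both.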

How the data were processed

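The authors deposited 1 table of raw counts by gene symbol for each library. Per the submitters' processing notes, the authors used STAR 2.0.0e, HTSeq and the mm10 build, and the sources used here give neither annotation nor strand setting. The 6 summary rows of unassigned reads did not enter library sizes. Reads aligned to several places are not in gene counts (28.3% to 47.1% of entries), which lowers genes with pseudogene copies.

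The 9 IP libraries were fitted in edgeR 4.0.16 (R 4.3.3, limma 3.58.1) with TMM scaling, filterByExpr, a robust quasi-likelihood fit and Benjamini-Hochberg adjustment over 16417 genes at 0.05. The models were 3 group means for treatment, and treatment plus number for the number comparison. DESeq2 1.42.0 was an alternative. CPM values are TMM-scaled over all 11 libraries, ratios within numbers use CPM + 0.5, and IP over unbound or input uses TMM over the 4 libraries concerned with a prior count of 2. Lengths and positions come from GENCODE M21 (GRCm38) and cover 91.6% of tested genes. The length trend was a lowess curve (span 0.3) per library. The fits were tested on simulated counts with known changes. Those counts had a single mean per gene and dispersions from the model with replicate number. The number difference seen in the libraries was not in them, so they do not show how well the treatment fit recovers changes here.

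Libraries of the same replicate number deviated together from their group means in all pairs (correlation 0.376 to 0.795), so a fit with the number as a block stands beside the treatment results. Numbers 2 and 3 also correlate with each other.

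Genes were named by rule: the 6 highest and 6 lowest per kb, the 4 highest and 4 lowest estimates of each comparison, up to 12 called genes, filtered genes, and Mrps36, Mrps30 and Mrps18a. Mrps35 and the genes of the upstream sequences were chosen after their values were seen. The genes and all lists were chosen with earlier results of these data known. At 20926712 to 53862653 gene counts per library, the spread between libraries and not counting error limits the precision of all but the lowest genes. The upper CPM limits given for Mrpl53 cover counting error only. The SE values come from the edgeR fits and also include the spread between libraries. Reads carry no molecular identifiers.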

Additional observations from a re-analysis of the deposited data

Results flagged for a closer look

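For some genes the excess of the number 1 library over numbers 2 and 3 was larger in cocaine IP 1 than in another number 1 library (edgeR's quasi-likelihood test of the difference of differences, adjusted p under 0.05, 3 residual degrees of freedom). Each group has 1 number 1 library in a lane of its own, so these calls compare single libraries and a difference between treatments was not tested. Against saline IP 1, the log2 difference was 1.18 for Mrpl28, 1.15 for Mrpl40, 1.15 for Mrpl12, 1.06 for Mrps12 and 1.01 for Mrpl11. Their adjusted p ran from 0.0334 to 0.0492, and DESeq2 called 16 genes in place of 5. The count was 0 without saline IP 3 and 0 with the length trend removed.

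Against yoked IP 1 the largest values were 1.67 for Mrpl54, 1.55 for Mrps24, 1.44 for Mrpl28, 1.41 for Mrpl12 and 1.25 for Mrps18c. Mrpl40 followed at 1.22, Mrps16 at 1.18, Mrps35 at 1.13, Mrpl11 at 1.12, Mrps12 at 1.12 and Mrps21 at 1.11. Mrpl14 was at 1.08, Mrpl46 at 1.07, Mrps28 at 1.06, Mrpl20 at 0.98 and Mrps26 at 0.96. The smallest called values were 0.92 for Mrps23, 0.92 for Mrps33, 0.90 for Mrpl57 and 0.85 for Mrps25. Their adjusted p ran from 0.00637 to 0.0425. The count of 20 (523 of all genes) ran from 7 to 27 (210 to 538 of all) on leaving out 1 library numbered 2 or 3. It was 7 (51 of all) with the length trend removed. All these values rest on cocaine IP 1, in which 47.1% of reads aligned to several places and 8.0% of gene counts fell on Rn45s (28.3% to 40.6% and 3.62% to 6.6% in the other libraries). Their part was not tested.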

How the results depend on the processing

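Under every alternative run, 0 of the 76 genes were called between treatments, and the number 1 median stayed above 0. With the replicate block the treatment medians were 0.30 for cocaine against saline, 0.43 for cocaine against yoked and -0.13 for yoked against saline. For yoked against saline, the count of genes above 0 was 8 with upper-quartile scaling, 7 at a mean CPM of at least 5, 16 with the length trend removed, 17 with the replicate block and the length trend removed, and 15 with all number 1 libraries left out. The last setting gave cocaine against saline a median of 0.058, and cocaine against yoked -0.17 for Mrps9. Removing the length trend gave number 1 a median of 0.37, with Mrps9 at -0.094. It turned Mrps2 to -0.082 and Mrpl35 to 0.015 for cocaine against saline, and Mrps2 to -0.0087, Mrps9 to -0.19 and Mrpl35 to 0.044 for cocaine against yoked. Together with the replicate block these were -0.080, 0.0045, -0.0004297, -0.18 and 0.028. Upper-quartile scaling put Mrps2 at -0.0002513 for cocaine against saline. For the number 1 excess of cocaine IP 1 against saline IP 1, 3 of the 76 genes were called with upper-quartile scaling, 0 (0 of all genes, median 0.29) with the length trend removed, and 16 (381 of all genes) with DESeq2. Against yoked IP 1 these were 7 (51 of all genes, median 0.28) with the length trend removed, and 964 of all genes with DESeq2. For yoked IP 1 against saline IP 1 the median was -0.040 with upper-quartile scaling and -0.033 with the length trend removed. Set against the other single fraction, 44 genes were above unbound in all 3 saline IP libraries and 23 above input in all 3 cocaine IP libraries. A 1.5-fold rule called 8 genes for cocaine IP over unbound. The shares of all genes under these settings are not given, so these counts show neither enrichment nor its absence. The causes of these shifts were not tested. Leaving out 1 IP library at a time, the cocaine against saline median ran from -0.15 to 0.58 (7 to 76 genes above 0), with Mrpl54 from -0.098 to 1.20, Mrps16 from -0.076 to 0.95, Mrpl40 from -0.15 to 0.96, Mrps2 from -0.099 to 0.11, Mrps9 from -0.24 to 0.11, Mrpl35 from -0.25 to 0.19 and Mrpl50 from -0.26 to 0.076. The cocaine against yoked median ran from 0.0078 to 0.71 (40 to 76 genes), with Mrps18c from -0.0093 to 1.16, Mrpl45 from -0.086 to 0.33, Mrps2 from -0.022 to 0.31, Mrps9 from -0.15 to 0.20 and Mrpl35 from -0.25 to 0.18. The yoked against saline median ran from -0.34 to 0.065 (0 to 61 genes), with Mrps27 from -0.066 to 0.26, Mrps16 from -0.12 to 0.22, Mrpl24 from -0.22 to 0.32, Mrps23 from -0.10 to 0.19 and Mrps18c from -0.62 to 0.020. The number 1 median ran from 0.55 to 0.91, with 66 to 74 of the 76 genes and 7837 to 8774 of all genes called. For the number 1 excess between libraries, the calls ran from 0 to 10 (0 to 172 of all genes) for cocaine IP 1 against saline IP 1, with Mrpl45 from -0.17 to 0.082 and Mrps2 from -0.21 to 0.037. They ran from 7 to 27 (210 to 538 of all genes) against yoked IP 1, with Mrpl50 from -0.047 to 0.050, Mrpl42 from -0.11 to 0.077 and Mrpl45 from -0.22 to 0.040. The yoked IP 1 against saline IP 1 median ran from -0.18 to -0.0014 (14 to 38 genes above 0), with Mrpl23 from -0.29 to 0.93. The saline IP over input median ran from -0.033 to 0.25 (14 to 40 genes above in every remaining library), and 0 to 1 genes were 2-fold below unbound. With a library left out these rules are looser, and the shares of all genes under them are not given. Mrpl23 had 7 to 43 counts per library and Mrps34 18 to 80, so relative counting error is larger for them than for the other tested genes.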
